A study of Medicago truncatula with 6 samples.

Results

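Genes known from root nodules, or described as such, were followed in mycorrhizal roots of the legume Medicago truncatula, in the Mtphr2 mutant and in the wild type R108. They are NIN (MTR_5g099060), ERN1 (MTR_7g085810), the leghemoglobin gene MTR_1g090820 and MTR_3g020930, a gene described as a nodule cysteine-rich (NCR) secreted peptide. They were picked by locus, 4 of the 54762 loci in the deposited table, with values of the Mtphr2 against R108 comparison already known, so their own levels are given as a description without a test. The study's question was how gene expression in mycorrhizal roots differs between Mtphr2, a mutant of the phosphate starvation regulator PHR2, and its wild type. There were 3 libraries from Mtphr2 and 3 from R108, and the labels place both in the R108 line. The labels give neither the mutant allele nor the fungus, the plants' age or the phosphate supply. They describe the replicates as technical, so the spread and every p-value cover variation between these libraries, which may not include variation between plants. Values after ± are SD over n = 3 libraries, and SE stands for the standard error of a fitted value.

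Legume roots host both arbuscular mycorrhizal fungi that deliver phosphate and, in nodules, rhizobia that fix nitrogen. After perception, signals of both partners pass through a shared signalling pathway, and the transcription factors that act after it are partly separate. On the nodule side, NIN, a factor with an RWP-RK DNA-binding domain, starts nodule organogenesis and infection, and ERN1, an AP2/ERF factor, acts in the infection of root hairs. Leghemoglobin and NCR peptides are products of mature nodules: leghemoglobin binds oxygen in infected cells, and NCR peptides are sent to the bacteria inside those cells and drive their differentiation.

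Deposited estimated counts summed to between 19809184 and 21477169 per library in Mtphr2 and between 18199040 and 19396774 in R108, and 22663 loci had enough counts to be tested. Levels are given in CPM, a count relative to the scaled library total, and levels of different genes are compared in TPM, which also divides by locus length. Genes with the words CASP-like or Casparian in their annotation, used as a proxy for root endodermis, numbered 49, with 35 tested. Their summed level was 842 to 933 CPM in Mtphr2 and 757 to 1026 CPM in R108. The highest, MTR_8g037800, closest to Casparian strip integrity factor 1, had 285 to 322 CPM in Mtphr2 and 228 to 295 CPM in R108. These words do not show that a gene is confined to that cell layer, so the sum is no measure of endodermis. Genes of green tissue, 37 by annotation with 16 tested, summed to 131 to 215 CPM in Mtphr2 and 132 to 203 CPM in R108. Arbuscules are the branched fungal structures inside root cells, and the mean log2 CPM of 13 plant genes used as their markers was 5.23, 2.68 and 3.43 in Mtphr2 replicates 1 to 3, and 7.52, 6.36 and 5.08 in R108 replicates 1 to 3. All 13 markers had counts in every library and none was at 0, and their summed level was 124 to 1133 CPM in Mtphr2 and 1123 to 5222 CPM in R108. The fitted change was negative for 13 of the 13, against 47.7% of all tested genes, and 11 had an unadjusted p under 0.05, against 16.4%. The markers were chosen with earlier results of these data known, so these counts and the calls that follow are given as a description. At an adjusted p under 0.05, edgeR called 0 of the 13, against 0.0794% of all tested genes, and DESeq2 called 3, against 4.76%. With the replicate number as a block, edgeR called 1, the sugar transporter gene SWEET1b (MTR_3g089125, adjusted p = 0.0345, against 0.232 without the block), and 0.335% of all tested genes.

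NIN was at the edge of detection in both genotypes. It had 2, 8 and 9 estimated counts in Mtphr2 replicates 1 to 3, and 7, 0 and 6 in R108 replicates 1 to 3. The groups overlapped, with the lowest library in R108, and NIN was too low to be tested. Its 19 counts over the Mtphr2 libraries correspond to 0.303 CPM, with an exact Poisson 95% interval of 0.183 to 0.474 CPM. Its 13 counts over the R108 libraries correspond to 0.231 CPM, with an interval of 0.123 to 0.394 CPM. These intervals overlap, cover counting error only, and leave a difference between the genotypes not detectable at this depth. In R108 replicate 2, where NIN had 0 counts, the limit that a count of 0 allows is 0.154 CPM. Ranked by mean TPM, NIN stood above 14.6% of the annotated genes that had a count.

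ERN1 varied more among wild-type libraries than the other 2 tested genes. It had 2.21, 2.63 and 1.38 CPM in Mtphr2 replicates 1 to 3, and 12.9, 7.13 and 1.95 CPM in R108 replicates 1 to 3. R108 replicates 1 and 2 were above every Mtphr2 library, while R108 replicate 3 lay among them, so the groups overlapped. The mean was 2.07 ± 0.633 CPM in Mtphr2 and 7.31 ± 5.46 CPM in R108, and the highest R108 library exceeded the lowest 6.60-fold, against 1.90-fold among Mtphr2 libraries. The fitted log2 fold change, Mtphr2 over R108, was -1.82 (SE 0.658), a 3.52-fold lower level. It was 2.19-fold lower without R108 replicate 1, the library with its highest level.

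The leghemoglobin gene MTR_1g090820, whose closest Swiss-Prot entry is Leghemoglobin 29 of Vicia faba, had 1.96, 2.95 and 1.95 CPM in Mtphr2 replicates 1 to 3, and 5.21, 9.999 and 3.14 CPM in R108 replicates 1 to 3. Every Mtphr2 library was below every R108 library, although the closest pair, Mtphr2 replicate 2 and R108 replicate 3, lay near each other. The mean was 2.29 ± 0.573 CPM in Mtphr2 and 6.12 ± 3.52 CPM in R108. The fitted log2 fold change was -1.42 (SE 0.454), a 2.67-fold lower level in Mtphr2, and it was 1.82-fold lower without R108 replicate 2, its highest library.

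MTR_3g020930 had the least spread of the 3 tested genes in each genotype. It had 1.36, 1.06 and 1.05 CPM in Mtphr2 replicates 1 to 3, and 3.91, 4.31 and 2.82 CPM in R108 replicates 1 to 3. Every Mtphr2 library was below every R108 library. The mean was 1.15 ± 0.174 CPM in Mtphr2 and 3.68 ± 0.772 CPM in R108, with a fitted log2 fold change of -1.67 (SE 0.274), a 3.18-fold lower level in Mtphr2. Of the 4 genes, 2 thus had groups that did not overlap with Mtphr2 lower, where 10.6% of all tested genes did. Since the genes were chosen with this comparison known, nothing is read from that count. In bulk roots, fewer cells of a type and less RNA per cell cannot be told apart in these differences.

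**Figure D1:**
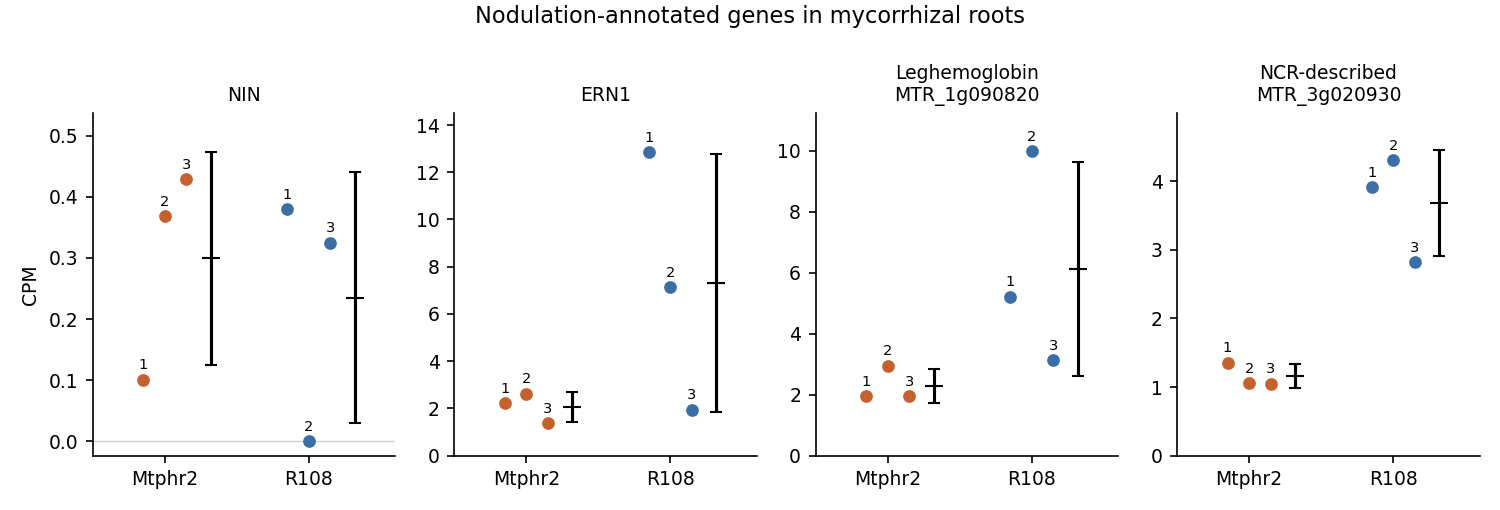
CPM of NIN, ERN1, the leghemoglobin gene MTR_1g090820 and MTR_3g020930 in the 3 Mtphr2 libraries (left in each panel) and the 3 R108 libraries (right); the small digits are replicate numbers, and bars are the mean with SD. NIN stays under 0.5 CPM and overlaps between genotypes, ERN1 overlaps through R108 replicate 3 at 1.95 CPM, and the other 2 genes do not overlap.

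Per length, the 3 detected genes were close to each other within a genotype. In Mtphr2 the leghemoglobin gene had 4.45 ± 1.11 TPM, ERN1 4.45 ± 1.35 TPM, MTR_3g020930 3.995 ± 0.609 TPM and NIN 0.146 ± 0.0854 TPM. In R108 ERN1 had 14.95 ± 10.85 TPM, MTR_3g020930 12.2 ± 2.37 TPM, the leghemoglobin gene 11.49 ± 6.60 TPM and NIN 0.111 ± 0.0962 TPM. In each genotype the first 3 levels differed from their neighbours by less than the larger SD, and NIN lay below them in every library. Over all libraries ERN1, MTR_3g020930 and the leghemoglobin gene stood above 53.4%, 50.4% and 50.1% of annotated genes with a count.

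The 3 detected genes were highest in different wild-type libraries. ERN1 peaked in R108 replicate 1, as the arbuscule markers did, whereas the leghemoglobin gene and MTR_3g020930 peaked in R108 replicate 2. Over the 6 libraries, Pearson's r of log2 CPM with the mean arbuscule marker level was 0.81 for ERN1, 0.64 for the leghemoglobin gene, 0.88 for MTR_3g020930 and -0.39 for NIN. These values describe 6 points that share their genotype split and scaling. R108 replicate 3 and Mtphr2 replicate 1 had near marker levels (5.08 in R108 and 5.23 in Mtphr2), and in that pair ERN1 had 2.21 CPM in Mtphr2 and 1.95 CPM in R108. In the same pair the leghemoglobin gene had 1.96 CPM in Mtphr2 and 3.14 CPM in R108, and MTR_3g020930 had 1.36 CPM in Mtphr2 and 2.82 CPM in R108. The part of the arbuscule marker levels in the differences of these genes was not tested.

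**Figure D2:**
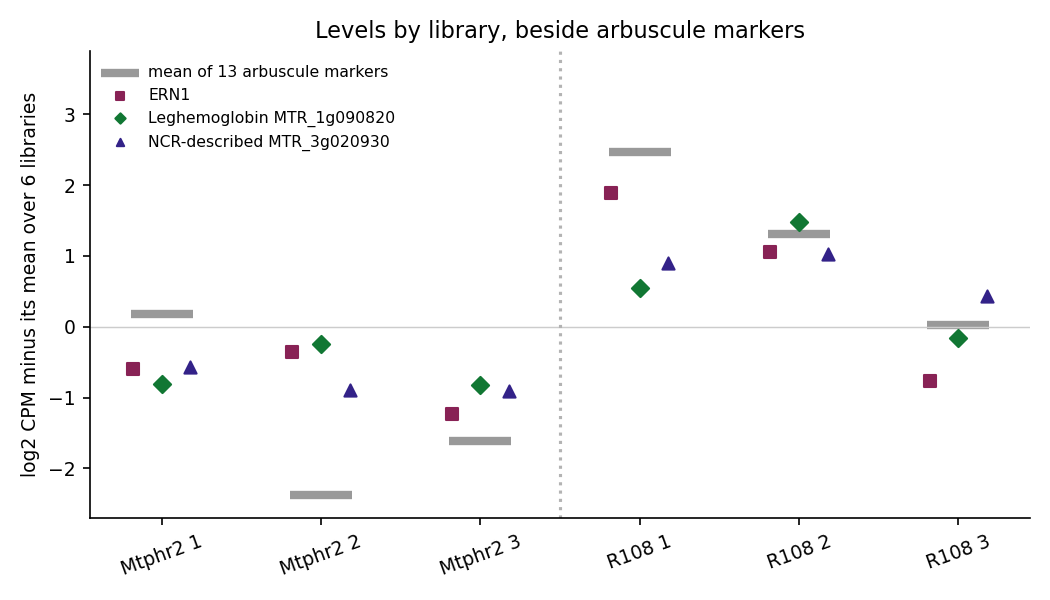
The log2 CPM of ERN1, the leghemoglobin gene MTR_1g090820 and MTR_3g020930, each minus its mean over the 6 libraries, with the mean of 13 arbuscule markers treated the same way (grey bars), in Mtphr2 libraries on the left and R108 libraries on the right. ERN1 and the markers are highest in R108 replicate 1, and the other 2 genes in R108 replicate 2.

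By the same measure over 15256 described genes with a mean of at least 5 CPM, the nearest to ERN1 were the ferredoxin gene MTR_4g053120 (r = 0.999), the nudix hydrolase gene MTR_1g090550 (r = 0.990) and the plastid phosphate translocator gene MTR_3g077640 (r = 0.989). The nearest to the leghemoglobin gene was MTR_5g084260 (r = 0.989), described as a nodule-specific glycine-rich peptide, followed by an actin-related protein 2/3 subunit gene, MTR_4g115900 (r = 0.986), and a ribosomal protein S20-2 gene, MTR_0157s0070 (r = 0.983). The nearest to MTR_3g020930 were an enoyl-(acyl carrier) reductase gene, MTR_7g105570 (r = 0.997), MTR_1g116110 for protoheme IX farnesyltransferase (r = 0.995) and the sterol reductase-like gene MTR_4g074350 (r = 0.993). For NIN they were MTR_4g086240 (r = 0.998), described as VID27-like, the lipoxygenase gene MTR_8g018730 (r = 0.980) and MTR_5g077840 (r = 0.963), a Rossmann-fold gene, at counts too low for the likeness to be read. With 6 libraries, r was above 0.95 for 94 genes with ERN1, 40 with the leghemoglobin gene, 141 with MTR_3g020930 and 11 with NIN.

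The description of MTR_3g020930 as an NCR peptide went against other parts of its annotation. Its domain matches include the late nodulin domain of NCR peptides, but also the potato inhibitor I domain, and its closest Swiss-Prot and GenBank entries are the subtilisin inhibitor CLSI-I, a blocker of serine proteases. It shared reads with such an inhibitor gene. Its estimated counts were not whole in 4 libraries, and of all loci only MTR_3g020880, described as subtilisin inhibitor 1, had values in those 4 libraries that completed them to whole numbers within 0.01. The 2 loci together had 124, 72 and 59 counts in Mtphr2 replicates 1 to 3, and 274, 250 and 160 in R108 replicates 1 to 3, so the groups did not overlap for the sum either. MTR_3g020930 took 21.9% to 37.3% of that sum in Mtphr2 and 26.3% to 33.8% in R108. Scaled by library, the sum was 4.12 ± 1.84 CPM in Mtphr2 and 12.1 ± 3.16 CPM in R108. The level of MTR_3g020930 alone is therefore uncertain by the split of these reads.

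**Figure D3:**
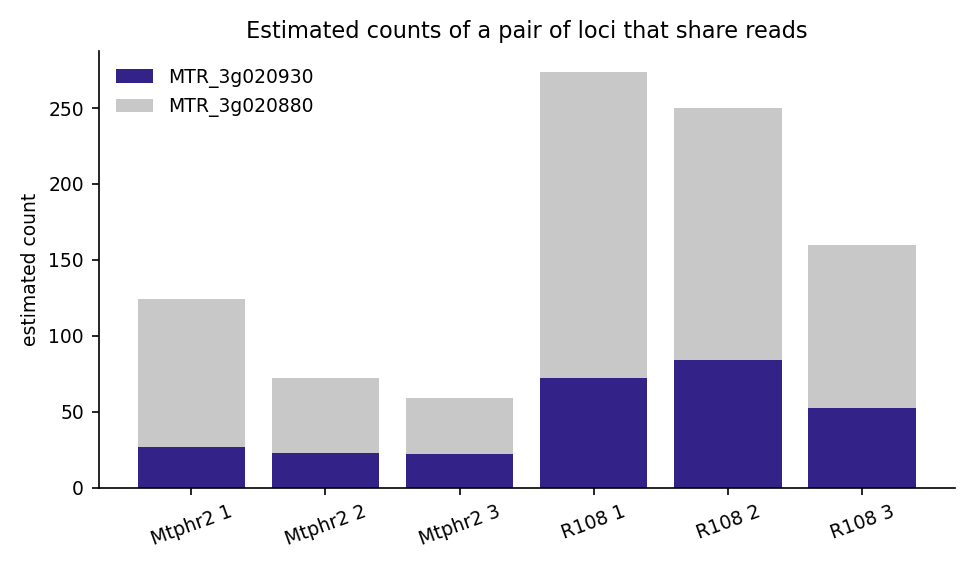
Estimated counts of MTR_3g020930 (dark) and of MTR_3g020880 (light), stacked for each library, with the Mtphr2 libraries on the left. The stack is 59 to 124 counts in Mtphr2 and 160 to 274 in R108, with MTR_3g020930 as the smaller part in all 6 libraries.

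Genes with the potato inhibitor I domain number 11, including MTR_3g020930, and this set was chosen after values were seen, so it is described without a test. The next annotated gene on the RefSeq assembly MtrunA17r5.0-ANR with a match in the table, MTR_3g020970, also a subtilisin inhibitor 1 gene, had 37.0, 18.6 and 25.0 CPM in Mtphr2 replicates 1 to 3, and 59.8, 42.7 and 37.3 CPM in R108 replicates 1 to 3. Its groups did not overlap, with the highest Mtphr2 library just under the lowest R108 library. MTR_3g020800 had 1.46, 0.184 and 0.333 CPM in Mtphr2 replicates 1 to 3, and 9.23, 6.36 and 1.95 CPM in R108 replicates 1 to 3, again without overlap. The trypsin inhibitor-like gene MTR_1g075340 of the same set had 5.82, 1.61 and 1.81 CPM in Mtphr2 replicates 1 to 3, and 1.36, 3.64 and 0.921 CPM in R108 replicates 1 to 3, with overlap. The groups also overlapped for MTR_5g045470, with 10.8 to 38.5 CPM in Mtphr2 and 25.1 to 168 CPM in R108. They overlapped as well for MTR_5g090250, MTR_1g075380 and MTR_1g075410, with log2 fold changes of 1.59, 0.64 and -0.20. MTR_3g020880 was lower in Mtphr2 without overlap, as were 10.6% of all tested genes. MTR_1g070330 and MTR_1g070335 had no count.

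Of 670 other genes described as nodule cysteine-rich or late nodulin, 643 had no count in any library, which over the 6 libraries allows up to 0.0252 CPM each. That limit covers counting error only, and how well reads of the R108 line map to these loci was not tested. A count was found for 27 and enough for a test for 7. At an adjusted p under 0.05 (Benjamini-Hochberg), edgeR called 0 of these 7 and 0.0794% of all 22663 tested genes, and the adjusted p of the 7 ran from 0.337 to 0.970. DESeq2 also called 0, against 4.76% of all genes, limma-voom 0, against 0.137%, and edgeR with the replicate number as a term 0, against 0.335%. None of the 7 had an unadjusted p under 0.05, and the groups did not overlap, with Mtphr2 lower, for 1, MTR_7g052640, where 10.6% of all tested genes were lower without overlap. The 3 with the highest mean CPM, a scale that does not correct for length, were MTR_7g021640, MTR_6g021615 and MTR_7g052640. MTR_7g021640, closest to Chitinase-like protein 1, had 317 to 383 CPM in Mtphr2 and 349 to 463 CPM in R108. MTR_6g021615, with no Swiss-Prot entry, had 17.0 to 36.1 CPM in Mtphr2 and 19.2 to 42.3 CPM in R108. MTR_7g052640, closest to the lipid-transfer protein DIR1, had 14.0 to 24.4 CPM in Mtphr2 and 26.2 to 40.8 CPM in R108. Per length, MTR_6g083310, closest to a pathogenesis-related protein, was above the last 2 of these, with a mean of 73.8 TPM in Mtphr2 and 70.5 TPM in R108. Including MTR_3g020930, 622 of the 671 genes had a late nodulin domain, 15 of those had a count, and MTR_3g020930 was the only one of the 8 tested genes that had the domain.

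The other 11 leghemoglobin genes were at or near 0, and none could be tested. They summed to 0, 15 and 6 counts in Mtphr2 replicates 1 to 3, and to 4, 31 and 18 counts in R108 replicates 1 to 3. MTR_1g090820 thus held most leghemoglobin counts in every library, with 39, 64 and 41 in Mtphr2 replicates 1 to 3, and 96, 195 and 58 in R108 replicates 1 to 3. Only 4 of the 11 had a count. MTR_5g080440 had 0, 4 and 6 counts in Mtphr2 replicates 1 to 3, and 3, 8 and 13 in R108 replicates 1 to 3. MTR_5g081030 had 0, 10 and 0 in Mtphr2, and 0, 9 and 4 in R108, in the same order. MTR_5g080400 had none in Mtphr2, and 1, 14 and 1 in R108. MTR_1g090810 had 1 count in all. Leghemoglobin genes resemble each other, so reads could be split between them in ways the counting does not show, although all values of MTR_1g090820 were whole.

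Hemoglobins outside the leghemoglobin group are known to act in nitric oxide turnover in plants, and 5 such genes, chosen after values were seen, ranged widely. Per length, MTR_4g068870 was the lowest, with a mean of 0.205 TPM in Mtphr2 and 0.134 TPM in R108, and MTR_4g068860 the highest, with 315 TPM in Mtphr2 and 198 TPM in R108. The non-symbiotic hemoglobin gene MTR_4g068860 had 225, 216 and 160 CPM in Mtphr2 replicates 1 to 3, and 148, 166 and 78.9 CPM in R108 replicates 1 to 3. Its groups overlapped in a narrow range only. The gene next to MTR_1g090820 on the RefSeq assembly, MTR_1g090817, closest to a tRNA threonylcarbamoyltransferase, had 46.1, 64.2 and 47.7 CPM in Mtphr2 replicates 1 to 3, and 49.6, 94.6 and 52.7 CPM in R108 replicates 1 to 3. Like the leghemoglobin gene it was highest in replicate 2 of each genotype. The gene on the other side, MTR_1g090827 for a coatomer subunit, was even, with 178 to 195 CPM in Mtphr2 and 182 to 207 CPM in R108.

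Nodule-specific glycine-rich peptides are a peptide family known from legume nodules. Of 40 genes so described, 10 had a count and 3 were tested, and none passed edgeR's test over all genes or was called by DESeq2 or limma-voom. An unadjusted p under 0.05 was found for 2, both lower in Mtphr2, where 8.41% of tested genes were lower at that level. MTR_5g084260, the gene nearest to the leghemoglobin gene in pattern, had 5.12, 7.14 and 6.0 CPM in Mtphr2 replicates 1 to 3, and 11.6, 22.6 and 7.20 CPM in R108 replicates 1 to 3. Its groups did not overlap, with the lowest R108 library close to the highest Mtphr2 library (log2 fold change -1.18, SE 0.416, edgeR adjusted p = 0.266). MTR_5g032465 had 0.552, 0.184 and 0.333 CPM in Mtphr2 replicates 1 to 3, and 0.868, 2.05 and 0.813 CPM in R108 replicates 1 to 3. Its groups also did not overlap (log2 fold change -1.80, SE 0.580, edgeR adjusted p = 0.250), at only 4 to 11 counts in Mtphr2 and 15 to 40 in R108. Among all tested genes, 10.6% were lower in Mtphr2 without overlap. The third, MTR_7g045505, whose closest entry is a helicase, had 5.92 to 7.64 CPM in Mtphr2 and 6.20 to 8.09 CPM in R108.

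Of 23 other genes of the nodulation pathway, 15 were tested, and edgeR called 0 of them over all genes (adjusted p between 0.337 and 0.732). None had an unadjusted p under 0.05, against 16.4% of all tested genes, and none was called by DESeq2, limma-voom or edgeR's blocked fit. The median log2 fold change of the 15 was -0.54, beside 0.02 over all tested genes, with 11 negative and 4 positive. In none of the 15 were the groups free of overlap, against 22.2% of all tested genes in either direction.

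**Figure D4:**
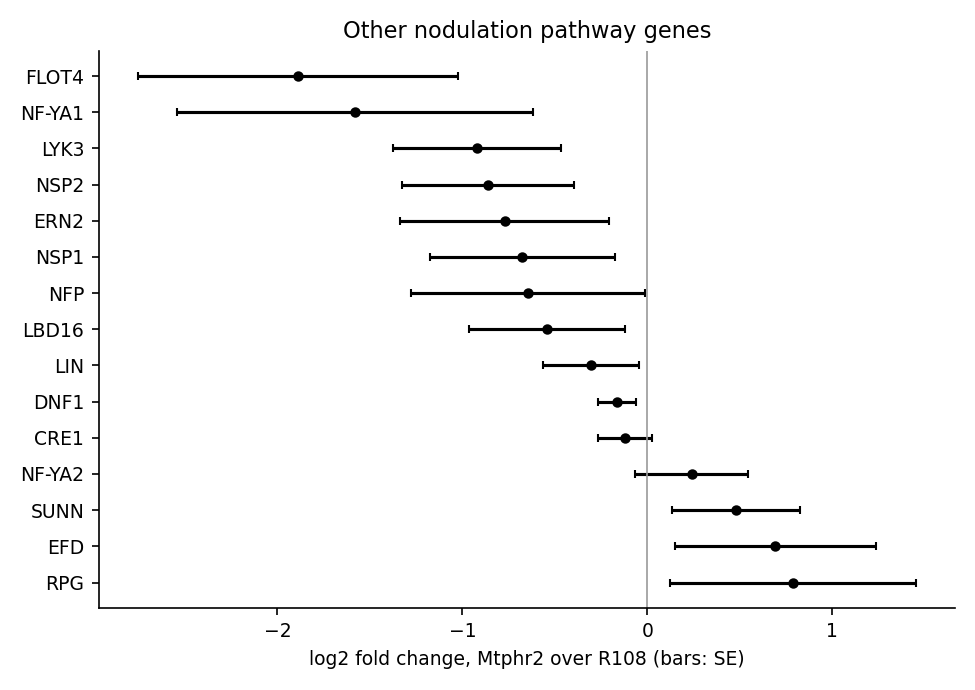
Fitted log2 fold change, Mtphr2 over R108, with its SE (bars), for the 15 tested genes of the nodulation pathway other than NIN and ERN1, sorted from the lowest at the top. Values run from -1.89 for FLOT4 to 0.79 for RPG, and none passed edgeR's test over all genes.

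Among Nod factor receptors, NFP (MTR_5g019040) had 0.368 to 0.803 CPM in Mtphr2 and 0.410 to 1.84 CPM in R108, and LYK3 (MTR_5g086130) had 0.952 to 1.25 CPM in Mtphr2 and 0.974 to 3.09 CPM in R108. The log2 fold changes were -0.65 (SE 0.634) for NFP and -0.92 (SE 0.457) for LYK3. The GRAS factors NSP1 (MTR_8g020840) and NSP2 (MTR_3g072710), which act in Nod factor signalling and in strigolactone synthesis, had log2 fold changes of -0.68 (SE 0.500) and -0.86 (SE 0.465). NSP1 had 18.9, 9.26 and 11.1 CPM in Mtphr2 replicates 1 to 3, and 34.8, 18.7 and 9.32 CPM in R108 replicates 1 to 3. It was highest in replicate 1 of each genotype.

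ERN2 (MTR_6g029180), the close relative of ERN1 in infection, had 27.3, 13.7 and 20.5 CPM in Mtphr2 replicates 1 to 3, and 58.9, 34.5 and 11.54 CPM in R108 replicates 1 to 3. Its lowest library was in R108, so the groups overlapped (log2 fold change -0.77, SE 0.564, edgeR adjusted p = 0.533). Other genes with an ERN protein as closest Swiss-Prot entry, a set picked after values were seen, showed the same order among R108 libraries, with replicate 1 highest and replicate 3 lowest. MTR_2g016730, closest to ERN1, had 10.3, 3.36 and 6.52 CPM in Mtphr2 replicates 1 to 3, and 43.6, 25.6 and 8.78 CPM in R108 replicates 1 to 3. MTR_6g012970, also closest to ERN1, had 25.6, 8.57 and 7.67 CPM in Mtphr2 replicates 1 to 3, and 77.0, 40.1 and 14.6 CPM in R108 replicates 1 to 3. The ERN3-like genes MTR_4g082345 and MTR_8g085960 stayed under 1.2 CPM in Mtphr2 and had 0.433 to 3.69 CPM in R108. ERN1 itself, highest in replicate 2 of Mtphr2, differed from MTR_2g016730 and MTR_6g012970 there, since both were highest in replicate 1 of Mtphr2.

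NIN belongs to the RWP-RK proteins, which also include the NLP factors, known for nitrate responses, and the RKD proteins. Of 11 others, 6 were tested and 0 passed edgeR's test, none was called by limma-voom, and 1 had an unadjusted p under 0.05, in the direction of higher in Mtphr2, as 8.01% of tested genes did. That gene, MTR_1g100970, closest to NLP7, had 163, 151 and 146 CPM in Mtphr2 replicates 1 to 3, and 123.4, 120 and 107 CPM in R108 replicates 1 to 3. Every Mtphr2 library was above every R108 library (log2 fold change 0.39, SE 0.0923, edgeR adjusted p = 0.191), as for 11.6% of all tested genes. DESeq2 called MTR_1g100970 (adjusted p = 0.0318), and 4.76% of all genes it tested. A second NLP7-like gene, MTR_0022s0430, had 66.0 to 89.0 CPM in Mtphr2 and 75.4 to 78.9 CPM in R108. MTR_3g115400, closest to NLP4, had 50.8 to 57.7 CPM in Mtphr2 and 49.4 to 83.6 CPM in R108.

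Of the CCAAT-binding factors downstream of NIN, NF-YA1 (MTR_1g056530) had 2, 9 and 16 counts in Mtphr2 replicates 1 to 3, and 4, 51 and 19 in R108 replicates 1 to 3. It was highest in R108 replicate 2, where NIN had 0 counts (log2 fold change -1.58, SE 0.965). NF-YA2 (MTR_7g106450) had 65.4 to 91.4 CPM in Mtphr2 and 50.3 to 102 CPM in R108 (log2 fold change 0.24, SE 0.305). The nodule differentiation factor EFD (MTR_4g008860) had a log2 fold change of 0.69 (SE 0.543), and LBD16 (MTR_7g096530), a factor of lateral root and nodule primordia, -0.54 (SE 0.422).

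Among infection genes, FLOT4 (MTR_3g106430), a flotillin of membrane domains at infection sites, had 45.5, 14.4 and 8.81 CPM in Mtphr2 replicates 1 to 3, and 165, 66.6 and 22.6 CPM in R108 replicates 1 to 3. Replicate 1 was highest in each genotype, and the groups overlapped (log2 fold change -1.89, SE 0.866, edgeR adjusted p = 0.337). Its estimated counts were not whole, so its reads may be shared with another locus. LIN (MTR_1g090320), an E3 ubiquitin ligase of infection threads, had 71.9 to 104 CPM in Mtphr2 and 78.9 to 151 CPM in R108 (log2 fold change -0.31, SE 0.259). RPG (MTR_1g090807), a coiled-coil protein of infection threads, had a log2 fold change of 0.79 (SE 0.665) and was highest in Mtphr2 replicate 3, at 2.95 CPM. The infection genes ENOD11, SYMREM1, CBS1 and the pectate lyase gene NPL had at most 6 counts in any library, and NPL had none.

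The cytokinin receptor gene CRE1 (MTR_8g106150) had 80.8 to 108.3 CPM in Mtphr2 and 90.0 to 113 CPM in R108 (log2 fold change -0.12, SE 0.146). SUNN (MTR_4g070970), the receptor kinase of nodule autoregulation, had 57.6 to 130 CPM in Mtphr2 and 44.6 to 84.4 CPM in R108 (log2 fold change 0.48, SE 0.346). The genes of its peptide ligands, CLE12 and CLE13, had at most 7 counts in any library.

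Of the genes for mature nodule function, DNF1 (MTR_3g027890), a signal peptidase subunit that processes NCR peptides, had 33.4 to 37.2 CPM in Mtphr2 and 36.6 to 43.5 CPM in R108 (log2 fold change -0.16, SE 0.104). DNF2 (MTR_4g085800) had 8, 8 and 15 counts in Mtphr2 replicates 1 to 3, and 7, 6 and 7 in R108 replicates 1 to 3. NAD1, which restrains defence in nodules, had no count in any library. In all, 8 of the 23 pathway genes were too low to be tested.

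**Figure D5:**
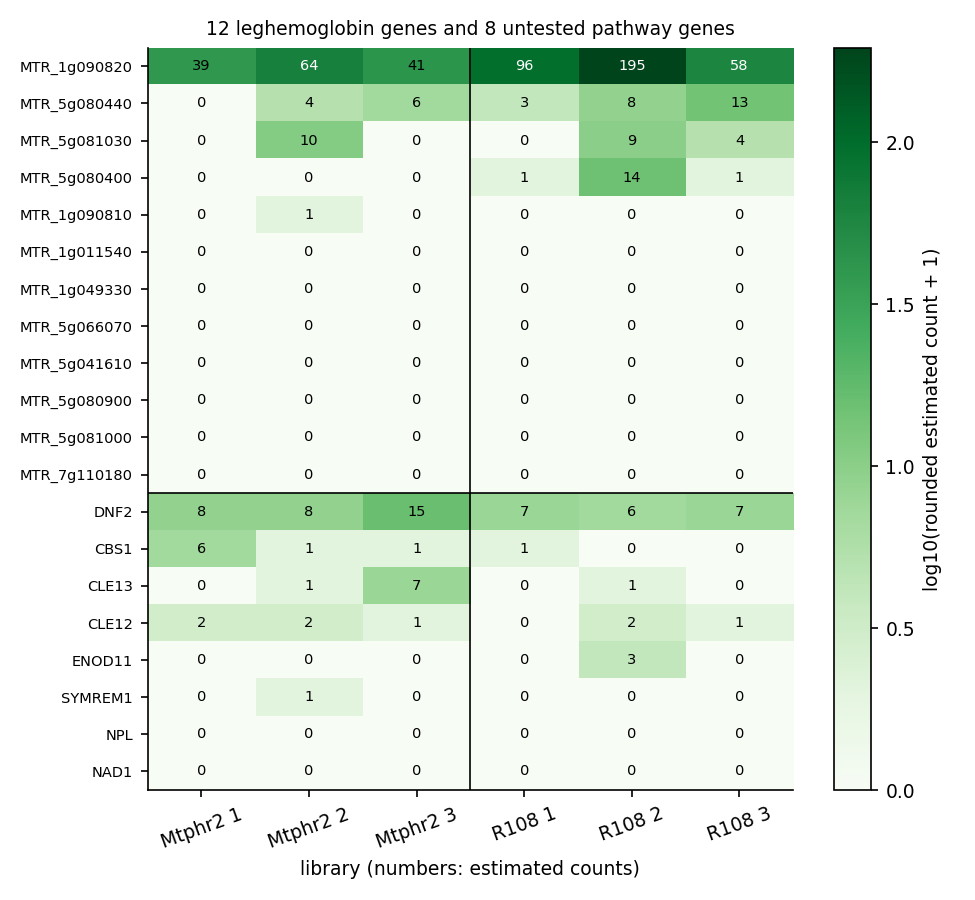
Estimated counts, rounded, of the 12 leghemoglobin genes (upper block) and of the 8 pathway genes too low to be tested (lower block) in each library, with Mtphr2 on the left; the colour is log10 of the count plus 1. MTR_1g090820 has 39 to 195 counts, and no other gene exceeds 15.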

How the data were processed

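Root RNA of Mtphr2 and R108 was sequenced in 3 libraries each. The labels' protocols name TRIzol extraction, an Illumina NovaSeq instrument and genome version 4.0 with HISAT2 and StringTie, and the submitters' processing notes add DESeq2. Tool versions, the counting program and its use of strand are not stated there. The deposited table holds estimated counts (expected counts) for 54762 loci, with descriptions, Swiss-Prot entries, domains and lengths, which are those of the deposited table.

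Estimated counts were rounded for the count models. Genes were kept with filterByExpr of edgeR (minimum count 10, minimum total 15), scaled by TMM and tested with edgeR 4.0.16 (quasi-likelihood, p-values adjusted by Benjamini-Hochberg over 22663 genes). DESeq2 1.42.0 and limma 3.58.1 served for alternatives, under R 4.3.3. Figures were drawn with matplotlib 3.10.9. The fit was first run on simulated data. Its recovery of true changes there is not given here, so a gene not called is not shown to be unchanged. TMM factors were 0.955 to 1.02. TPM was computed from the deposited counts and lengths.

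The 4 genes and all lists were chosen with earlier results of these data known. Lists by words used descriptions and, for leghemoglobins and NIN-like proteins, Swiss-Prot entries. Words for NIN-like proteins were matched at the start of a word, since they also occur inside names such as plastocyanin-like. Named were the 4 genes, tested pathway genes, called genes and the 3 highest of each family, and the 3 genes nearest to each of the 4 in Pearson's r of log2 CPM (prior count 2). Hypothetical proteins were left out of that search. Families too low to be tested are given by their counts. The RefSeq table matched 3 of the 4 genes by gene ID (not ERN1) and was used for neighbours only.

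After genotype means were removed, the correlation across genes between same-numbered libraries was 0.377, 0.151 and 0.168, each above 0.1. Between differently numbered libraries it was -0.31 to 0.187, the highest being Mtphr2 replicate 2 with R108 replicate 3, above 2 of the 3 same-numbered pairs. The labels do not say that a replicate number marks a shared plant, pot or day. The main fit therefore had genotype as its only term, and the replicate number was a block in an alternative fit only. Alternatives were DESeq2, limma-voom, other scalings and filters, the replicate block and leaving out each library. No sequences are given for these genes here.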

Additional observations from a re-analysis of the deposited data

How the results depend on the processing

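None of the 15 nodulation pathway genes, the 7 other nodule cysteine-rich genes or the 3 nodule glycine-rich genes passed under any alternative run. Among NIN-like genes 1 was called with DESeq2, MTR_1g100970, and 0 under the others. Over all genes, calls numbered 18 by edgeR, 1187 with DESeq2, 31 with limma-voom, 34 with no filter on low counts, 76 with the replicate block, and 7 to 44 when 1 library was left out (44 without Mtphr2 replicate 1, 7 without Mtphr2 replicate 2 or 3, 8 without R108 replicate 2 or 3). The replicate block added 1 call among the arbuscule markers (SWEET1b) and changed no call of the nodulation pathway, leghemoglobin, nodule cysteine-rich, nodule glycine-rich or NIN-like genes. NIN, whose log2 ratio of mean CPM was 0.35, turned to -0.004 without Mtphr2 replicate 3 and to -0.24 without R108 replicate 2, in a range of -0.24 to 0.88 with 1 library left out. It has no value with the replicate block, limma-voom, DESeq2 size factors in edgeR or the filter at a mean of 1 CPM, where it was not fitted or not recomputed. The negative log2 fold changes of ERN1 (-2.28 to -1.13 with 1 library left out), MTR_1g090820 (-1.75 to -0.87) and MTR_3g020930 (-1.85 to -1.54) kept their sign under all 13 alternatives run. Counts under about 10 in a library, as for NIN and most leghemoglobin genes, limit what these libraries can show.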

Other observations

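Transcripts of some nodule-linked genes were highest in R108 replicate 2, a pattern seen after the values were known and not tested. This library held 31 of the 74 counts of the 11 leghemoglobin genes other than MTR_1g090820, and 483 of the 1283 counts of the nodule glycine-rich genes without MTR_7g045505, of which 441 belong to MTR_5g084260 alone. By gene and in CPM, 2 of the 4 leghemoglobin genes with a count and 3 of the 9 glycine-rich genes with a count were highest there. For 1 of these leghemoglobin genes, MTR_5g081030, this holds only after scaling, with 9 counts in R108 replicate 2 and 10 in Mtphr2 replicate 2. Of the 3 glycine-rich genes, MTR_2g043880 rests on 1 count. The glycine-rich genes MTR_2g069273, MTR_3g460850, MTR_5g084080 and MTR_5g084105 were instead highest in R108 replicate 1, at 1 to 5 counts. The share of all genes highest in R108 replicate 2 was not computed, so no background stands beside these counts or those below. R108 replicate 2 also had 51 of the NF-YA1 (MTR_1g056530) counts, against 2 to 19 in the other 5 libraries, and the 3 counts of ENOD11. NIN had no count there. The 8 untested pathway genes showed no such excess, with 16, 13 and 24 counts in Mtphr2 replicates 1 to 3, and 8, 12 and 8 in R108 replicates 1 to 3. Among untested genes described as nodule cysteine-rich or late nodulin, 20 had a count, and 9 of these were highest in R108 replicate 2. That library held 59 of their 177 counts, and 31 of the 59 belong to MTR_5g056735 alone. The other genes of this set that were highest there had only 1 to 3 counts in that library. The tested genes so described, other than MTR_3g020930, peaked in other libraries. Of them, MTR_7g029540 had its lowest level in R108 replicate 2, at 1.54 CPM.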
